A study of Mus musculus with 2 samples.

Results

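Cluster 7 of the embryonic day 13.5 (E13.5) library is a set of surface epithelial cells of the developing lower jaw that carry Cxcl14. Its 385 cells were taken as the cells that the authors' deposited metadata assign to this cluster. They were 385 of the 6318 cells at E13.5 (6.09%) and of 13417 cells in both libraries. The authors gave clusters 7, 9 and 16 the lineage name surface ectoderm, and cluster 7 held 45.9% of their 838 cells (42.5 to 49.4%, exact Clopper-Pearson interval). Cluster 9 held 294 of those cells and cluster 16 held 159.

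The study profiled single cells of mandibular prominences, the paired swellings that form the lower jaw and tongue, by droplet-based 10x sequencing at E11.5 and E13.5. The embryos were wild-type CD1 mice, an outbred stock, with no transgene or agent in either group. Each stage was 1 library, from tissue dissociated with a cold-active bacterial protease whose concentration was 3 mg/ml for the younger and 5 mg/ml for the older tissue, so stage, library and protease concentration cannot be told apart. How many embryos were pooled is not given in the sources used here. Cells of 1 library are not replicates, so no p-value is given, and every interval is a 95% interval that covers counting error only. The libraries shared 71 cell barcodes, of which 6 lay in cluster 7.

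Embryonic surface epithelium starts as a thin sheet and stratifies into a basal layer on the basement membrane, which expresses the keratin genes Krt5 and Krt14 under the transcription factor gene Trp63, and a transient outer cover, the periderm. Facial epithelium also signals to the neural crest-derived mesenchyme beneath it, through WNT, BMP, FGF and Hedgehog ligands, and divides into skin and oral territories, of which the oral one makes teeth, glands and taste organs. Cxcl14 encodes a chemokine. Lmo1 encodes a LIM-only transcriptional cofactor, and Dcn encodes decorin, a small proteoglycan that binds collagen and is best known from connective tissue.

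The genes that stood highest in cluster 7 included those of transcription factors of the TFAP2 family, WNT ligands and gap junction proteins, so the promoter windows of Cxcl14, which names the cluster, of Lmo1, and of Gjb2 and Wnt6 are shown. Each runs from 250 bases before to 50 bases after a RefSeq transcription start in build GRCm38.p6, 5′ to 3′ on the gene's own strand. All 4 starts coincide with the GENCODE M21 gene start. Capitals mark GCCNNNGGC, the palindromic TFAP2 motif. The Cxcl14 window lies at chr13:56296502-56296801 (minus strand), Lmo1 at chr7:109175158-109175457 (minus), Gjb2 at chr14:57104653-57104952 (minus) and Wnt6 at chr1:74771642-74771941 (plus).

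Cxcl14: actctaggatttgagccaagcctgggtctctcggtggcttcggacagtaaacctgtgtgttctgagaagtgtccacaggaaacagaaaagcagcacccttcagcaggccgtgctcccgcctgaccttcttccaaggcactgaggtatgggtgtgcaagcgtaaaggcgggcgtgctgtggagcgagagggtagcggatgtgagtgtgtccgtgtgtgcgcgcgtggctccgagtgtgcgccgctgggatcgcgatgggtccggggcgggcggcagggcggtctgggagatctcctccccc
Lmo1: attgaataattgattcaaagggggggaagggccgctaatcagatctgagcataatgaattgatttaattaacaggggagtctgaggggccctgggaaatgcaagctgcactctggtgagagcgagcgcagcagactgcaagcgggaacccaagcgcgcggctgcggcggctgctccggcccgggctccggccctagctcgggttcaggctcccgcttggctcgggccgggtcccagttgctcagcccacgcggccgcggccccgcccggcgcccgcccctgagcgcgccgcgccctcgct
Gjb2: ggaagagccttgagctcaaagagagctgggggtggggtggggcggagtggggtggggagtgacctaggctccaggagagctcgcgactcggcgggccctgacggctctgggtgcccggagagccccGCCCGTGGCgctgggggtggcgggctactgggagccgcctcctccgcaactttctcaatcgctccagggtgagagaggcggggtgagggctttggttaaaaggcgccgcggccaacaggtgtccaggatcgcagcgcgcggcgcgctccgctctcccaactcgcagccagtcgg
Wnt6: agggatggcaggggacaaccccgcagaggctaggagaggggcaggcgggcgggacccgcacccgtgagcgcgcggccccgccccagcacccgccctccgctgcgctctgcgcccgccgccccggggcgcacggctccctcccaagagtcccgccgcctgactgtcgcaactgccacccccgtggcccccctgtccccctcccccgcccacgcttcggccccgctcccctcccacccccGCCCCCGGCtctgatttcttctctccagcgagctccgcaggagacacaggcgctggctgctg

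The motif began 124 bases before the start of Gjb2 and 12 bases before that of Wnt6. Neither the Cxcl14 window nor this Lmo1 window holds these letters, and the other of the 2 Lmo1 windows does. Of the 20 leading genes of the cluster, 15 had a window and 5 of these held the motif in at least 1 window: Gjb2, Rprml, Wnt3, Lmo1 and Wnt6. Among all 27025 genes with windows of this length, 18.5% held it. The LEF/TCF letters CTTTGA, searched on both strands, were in windows of 3 of the 15 (Gjb2, Rprml and Lmo1) and of 18.2% of all genes. A match of letters is not evidence of binding.

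The label was checked first against its 4 markers. Levels are UMIs (unique transcript counts) summed over the cells of a cluster and scaled to a sum of 1000000 (CPM). Krt14 stood at 3126 CPM in cluster 7, 1966 in cluster 9 and 2802 in cluster 16, and at 42.8 to 171 CPM over the 11 mesenchyme clusters. Krt14 was thus high in all 3 epithelial clusters and highest in cluster 7 among the 22 clusters.

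Cxcl14 stood at 3415 CPM in cluster 7, 70.1 in cluster 9 and 277 in cluster 16. Outside the epithelium it ranged from 20.1 to 1444 CPM over the mesenchyme clusters (median 277), with the highest of these in cluster 12. Cluster 7 held the highest Cxcl14 level of the library, but the gene was not restricted to epithelium.

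Lmo1 stood at 998 CPM in cluster 7, 54.5 in cluster 9 and 130 in cluster 16, and at 25.8 CPM or less in every mesenchyme cluster. Dcn stood at 739 CPM in cluster 7, 132 in cluster 9 and 247 in cluster 16, and ranged from 12.3 to 1093 CPM over the mesenchyme clusters (median 377). Only mesenchyme clusters 14 (1093 CPM) and 21 (857 CPM) held more Dcn than cluster 7. The 10 epithelial markers all had UMIs in cluster 7, with 6 of them over 50 CPM. They summed to 6281 CPM, of which 3126 came from the given marker Krt14. The 10 mesenchyme markers all had UMIs there too but summed to 227 CPM. The epithelial label thus rests on level and not on detection. The erythroid markers, which come from red blood cells, summed to 1558 CPM in cluster 7, against 848649 CPM in the erythroid cluster itself.

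**Figure D1:**
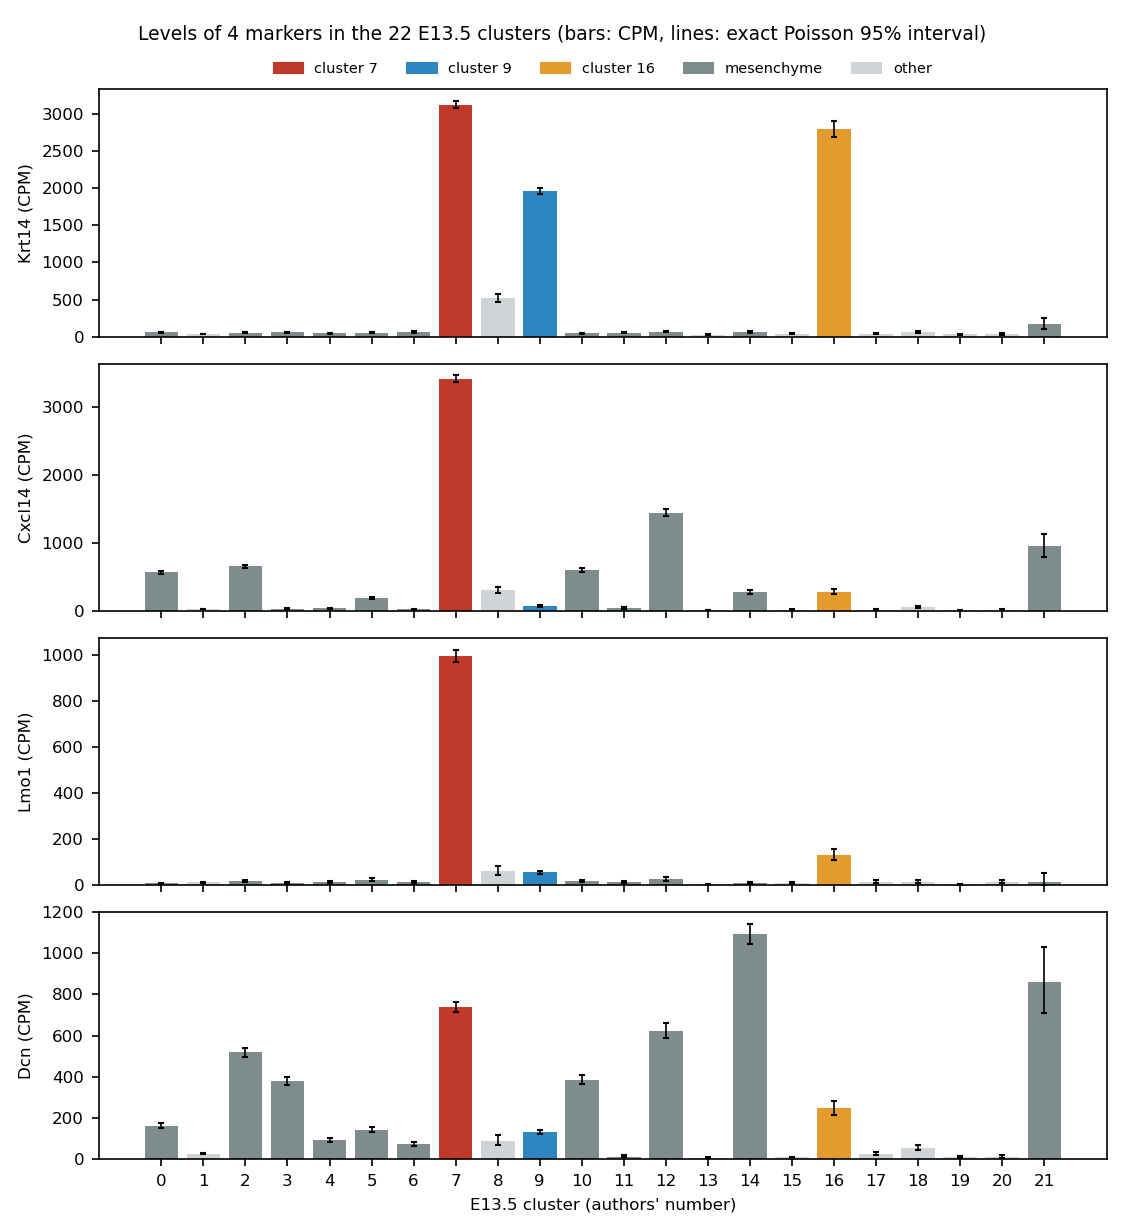
Bars show the level of each marker (CPM, linear axes from 0) in each of the 22 E13.5 clusters, and lines the exact Poisson 95% interval. Cluster 7 (red) is highest for Krt14 (3126 CPM), Cxcl14 (3415) and Lmo1 (998), and for Dcn (739) stands behind mesenchyme clusters 14 and 21 alone (dark grey bars: clusters the authors named mesenchyme or osteogenic progenitors).

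Single cells of cluster 7 carried these markers broadly. To compare cells at 1 depth, 2000 UMIs were drawn from each cell, which left out 2 cells of cluster 7, 1 of cluster 9 and 43 of cluster 16. Krt14 was then found in 99.2% of 383 cells of cluster 7 (97.7 to 99.8%), in 93.2% of cluster 9 and in 77.6% of cluster 16. Its share in erythroid cells was 7.28%. For Cxcl14 the share was 95.8% (93.3 to 97.6%), against 5.80% in cluster 9, 15.5% in cluster 16 and 2.43% in erythroid cells, which should lack it. The erythroid cells are deep, with a median of 18517 UMIs against 12472 in cluster 7. Without thinning, Cxcl14 was in 99.0% of the 385 cells.

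Lmo1 was found in 79.6% of the thinned cells of cluster 7 (75.2 to 83.6%), in 8.87% of cluster 9, in 11.2% of cluster 16 and in 0.971% of erythroid cells. Dcn was found in 60.6% (55.5 to 65.5%), against 15.4%, 31.0% and 1.46%. Without thinning, Krt14, Lmo1 and Dcn were in 100%, 97.1% and 89.1% of the cells of cluster 7. In erythroid cells these shares were 36.7%, 3.38% and 8.21%. All 4 markers met in 51.4% of the thinned cells (46.3 to 56.5%), and 0 of 383 held none of them, which allows a share of up to 0.783% by a floor of 3 counts and 0.959% by the exact interval.

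Each marker ranged in level over the cells. Krt14 ranged from 4.59 to 76.3 UMIs per 10000 UMIs in cluster 7, with a median of 30.7. Cxcl14 had a median of 35.0, a middle 50% of cells between 24.6 and 44.3, and a single highest cell at 288. Dcn had a median of 5.31 with its middle 50% of cells between 1.68 and 10.5 and a highest cell at 60.3, and 42 cells had no Dcn UMI. The median cell held 39 Krt14 UMIs and 6 Dcn UMIs, so counting error is larger for Dcn.

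**Figure D2:**
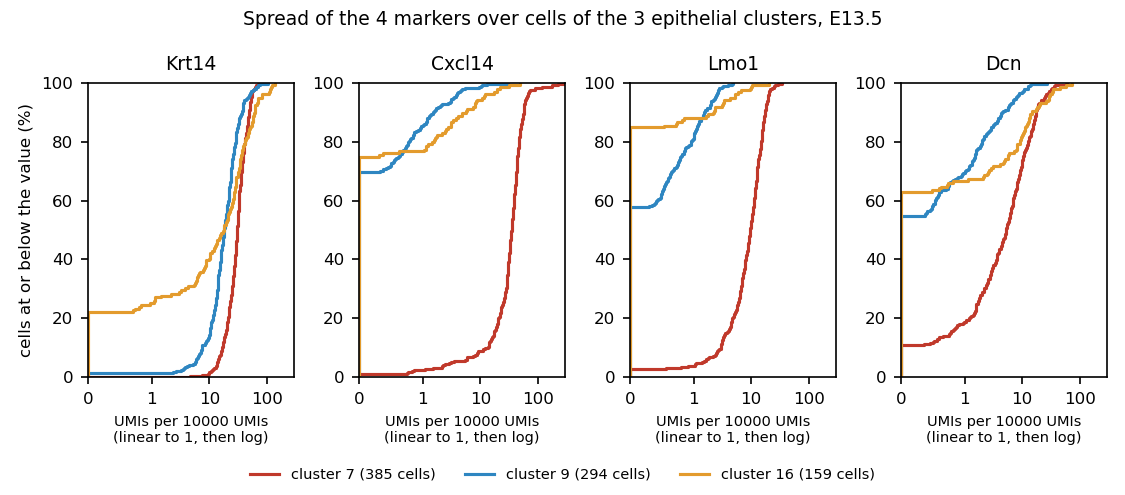
Each curve gives the percent of cells (vertical axis) at or below a level in UMIs per 10000 UMIs (horizontal axis, linear to 1 and then logarithmic) for clusters 7 (red), 9 (blue) and 16 (orange). Curves of cluster 7 lie to the right for Cxcl14, Lmo1 and Dcn, with 42 of 385 cells at 0 for Dcn, while the Krt14 curves lie closer together.

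Dcn is a mesenchymal gene in most tissues, so its level was set beside mesenchyme markers in the same cells. The 10 mesenchyme markers all had UMIs in cluster 7, summed to 227 CPM with none over 50 CPM, and reached 12370 CPM in their highest cluster. Cluster 7 held 3894 Dcn UMIs and 250 UMIs of the collagen gene Col3a1, a count ratio of 15.6 (13.7 to 17.8). The same ratio was 0.0350 to 0.803 over the 11 mesenchyme clusters. Against Col1a1 it was 20.5 in cluster 7 and at most 0.867 in mesenchyme, and against Lum, a proteoglycan gene related to Dcn, it was 36.1 and at most 1.34. No mesenchyme cluster thus held Dcn and these 3 genes in the proportion seen in cluster 7. The other epithelial clusters lay above mesenchyme as well: the ratios over Col3a1, Col1a1 and Lum were 2.96, 4.14 and 11.7 in cluster 9 and 9.08, 17.5 and 18.9 in cluster 16. Among thinned cells of cluster 7 with no UMI of Col1a1, Col3a1 or Lum, 60.8% of 347 held Dcn (55.5 to 66.0%), and among the 36 cells with such a UMI 58.3% did (40.8 to 74.5%).

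Dcn also differed between cell cycle phases within the cluster. It stood at 906 CPM (866 to 947) in the 178 cells that the authors called G1, at 676 (638 to 716) in the 118 S cells and at 572 (533 to 612) in the 89 G2M cells. In the same order Tfap2b stood at 558, 415 and 472 CPM, Krt14 at 3312, 3188 and 2776 CPM, and Lmo1 at 1000, 1007 and 986 CPM. Of the cells of cluster 7, 53.8% were called S or G2M (48.6 to 58.8%), against 66.0% in cluster 9 and 32.7% in cluster 16.

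Against all other E13.5 cells together, the highest ratios of cluster 7 belonged to Gjb6, Irx4, Gjb2, Rprml, Wnt3 and Serpinb10. The authors made the clusters from these same genes, so the ratios between clusters describe the cluster and test nothing. Gjb6 and Gjb2, connexin genes of gap junctions, were 150-fold (206 against 1.37 CPM) and 86.4-fold (245 against 2.83 CPM) higher. Gjb6 lies at chr14:57123303-57133611 and Gjb2 at chr14:57098600-57104702 (mm10), 18.6 kb apart with 1 coding gene between them. Irx4, an Iroquois homeobox gene, was 89.8-fold higher, at 61.7 CPM.

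Among the WNT ligand genes, Wnt3 was 72.2-fold higher, Wnt6 26.2-fold, Wnt7b 20.1-fold and Wnt10a 11.9-fold. Wnt6 (chr1:74771892-74785322) and Wnt10a (chr1:74791516-74804179) lie 6.19 kb apart with no coding gene between them. Kremen2, which encodes a receptor of the WNT inhibitors of the Dickkopf family, was 13.1-fold higher. The TFAP2 genes Tfap2b and Tfap2a were 28.3-fold and 17.9-fold higher, and Trp63 13.2-fold. Krt5, the partner keratin gene of Krt14, was 11.96-fold higher, and Krt14 itself, at chr11:100203162-100207548, 13.7-fold. The remaining leading genes were Lmo1 (57.2-fold), Cxcl14 (16.7-fold), Rprml (77.1-fold), Serpinb10 (68.5-fold), Gatsl3 (19.5-fold), Plppr1 (18.6-fold) and Gyltl1b (12.6-fold). Serpinb10 is annotated as a polymorphic pseudogene.

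Cluster 9 was the nearest comparison, from the same library and with similar cells: a median of 14616 UMIs against 12472, and a mitochondrial share of 3.16% against 3.40%. Compared with it, cluster 7 was higher in Irx4, Cxcl14, Tfap2b and Gjb6 and in 13 of 29 measured WNT pathway genes, and lower in 13 of 17 oral and dental genes and 3 of 4 simple keratins. A gene was called when it differed at least 2-fold with an interval excluding 1, which is a rule of size. Of 11014 genes with at least 20 UMIs over both clusters, 343 were called higher in cluster 7 (3.11%) and 555 lower (5.04%), and the median log2 ratio was -0.06.

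Irx4 held 325 UMIs in cluster 7 and 2 in cluster 9 (61.7 and 0.452 CPM), a ratio of 136 (37.5 to 1131). Irx3 and Irx5, 556 kb apart on chromosome 8 with no coding gene between them, were elevated too: Irx3, at 110 CPM, by 11.9-fold (8.65 to 16.7) and Irx5, at 89.2 CPM, by 9.18-fold (6.71 to 12.8). Irx2, which the list of oral and dental genes holds, was 7.48-fold higher. Irx2, Irx3, Irx4 and Irx5 thus moved the same way, while Irx1 was 4.39-fold lower in cluster 7, at 3.04 against 13.3 CPM, and was chosen after its values were seen.

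Tfap2b stood at 487 CPM in cluster 7 and 11.99 in cluster 9, a ratio of 40.7 (31.0 to 54.4). Gata3, which encodes a zinc finger factor of skin, stood at 54.5 and 3.39 CPM (16.1-fold), and Hic1, a transcriptional repressor gene, at 57.7 and 3.39 CPM (17.0-fold). Over the whole list of epidermal transcription factors the calls were mixed: 4 of 19 measured members lay higher, 3 lay lower, and the median log2 ratio was 0.16. Tfap2a (2.58-fold) and Tfap2c (2.56-fold) were the other higher members, and Tfap2c was chosen after its values were seen. Klf4, Ehf and Zfp750, regulators of late epidermal differentiation, were lower (3.49-fold, 7.15-fold and 2.89-fold). Trp63 itself stood at 179 and 128 CPM and was not called.

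The 4 given markers divided in this comparison. Cxcl14 was 48.7-fold higher in cluster 7 (43.5 to 54.7), Lmo1 18.3-fold (16.1 to 20.9) and Dcn 5.60-fold (5.13 to 6.12). Krt14 was 1.59-fold higher (1.55 to 1.63) and was not called. Gjb6 (36.5-fold), Rprml (25.9-fold), Gjb2 (16.9-fold) and Phlda2, an imprinted growth regulator gene (9.33-fold), completed the 12 highest ratios.

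**Figure D3:**
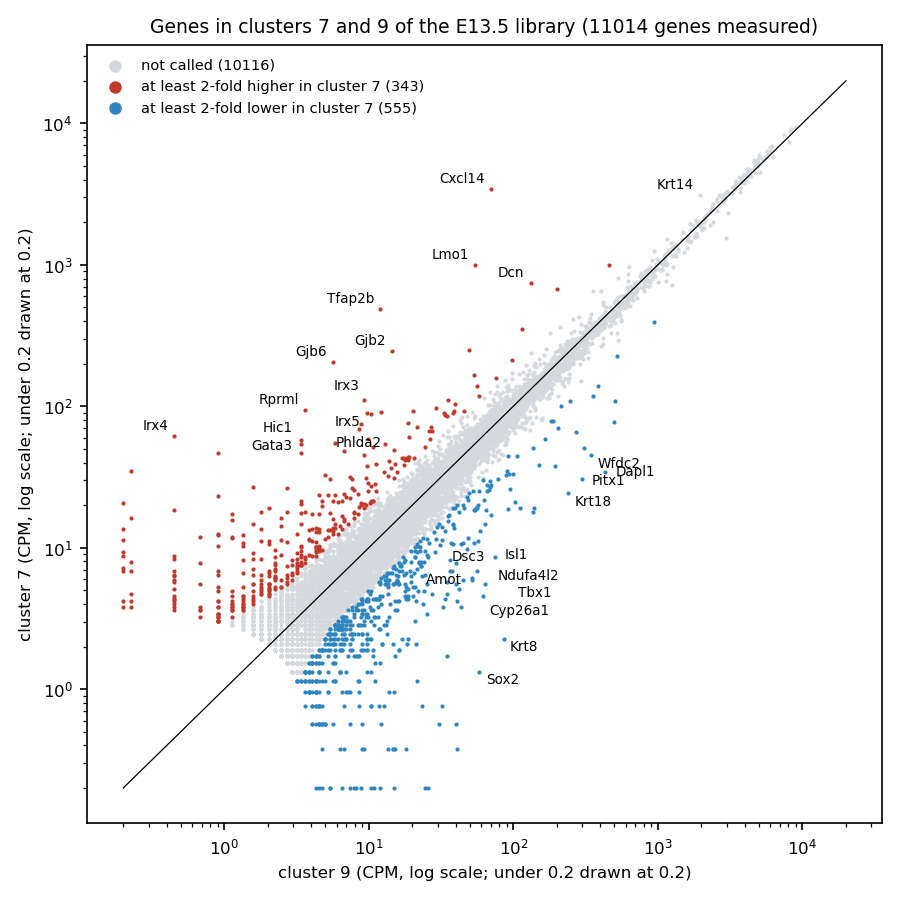
Each point is 1 of 11014 genes by its level in cluster 9 (horizontal) and cluster 7 (vertical), in CPM on log axes, with the diagonal at equal levels. The 343 genes called higher in cluster 7 are red and the 555 called lower are blue, and the names are the 4 given markers and the 12 highest and 12 lowest ratios.

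WNT pathway genes were more often higher: 13 of 29 measured members were called higher and 3 lower, and their median log2 ratio was 0.80 against -0.06 over all genes. In cells called G1 only that median was 0.34. Among ligands, Wnt9b stood at 15.8 and 1.13 CPM (13.9-fold), Wnt7a at 12.3 and 1.36 (9.09-fold), Wnt3 at 87.7 and 10.4 (8.43-fold) and Wnt6 at 672 and 201 (3.35-fold). Wnt4, Wnt5a and Wnt10a stood at 1.21, 1.16 and 1.74 times their level in cluster 9 and were not called. The receptor gene Fzd10 was 5.60-fold higher and Kremen2 5.03-fold. Axin2 and Lef1, which canonical WNT signalling is known to induce, were 3.43-fold and 3.10-fold higher. The lower members were the secreted inhibitor genes Notum (3.57-fold), Dkk3 (2.65-fold) and Sfrp1 (2.38-fold). Among these members Wnt4, Wnt5a, Wnt6, Axin2, Fzd10, Kremen2 and Lef1 lie outside the 3 highest and 3 lowest ratios of their list and were chosen after their values were seen.

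Genes of placodes and hair follicles, the thickenings that start skin appendages, were called higher in 6 of 14 measured members and lower in 0. Of all genes measured, 3.11% were called higher and 5.04% lower. The list's median log2 ratio was 0.95, and 0.51 in cells called G1 only. Lhx2 held 86 UMIs in cluster 7 and 1 in cluster 9, and Dkk4 246 and 4. These UMIs came from few cells. The 10 cells richest in each gene held 80.9% of the Dkk4 UMIs and 88.4% of the Lhx2 UMIs, against 6.98% for Cxcl14.

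The cells that held Dkk4 were therefore looked at apart, a set chosen after the values were seen and described with no test. Dkk4, which encodes a secreted WNT antagonist and is a known target of WNT signalling, reached at least 3 UMIs in 16 cells of cluster 7 and in 0 cells of cluster 9. In these 16 cells Lhx2, a LIM homeobox gene, stood at 144 CPM (98.5 to 203), against 10.7 (8.04 to 14.0) in the other 369, with its UMIs in 5 of the 16. Edar, the ectodysplasin receptor gene, stood at 40.5 (18.5 to 76.9) against 4.96 CPM, and Wnt10b at 40.5 (18.5 to 76.9) against 8.33 CPM, each with 9 UMIs in 6 of the 16 cells. Lef1 stood at 234 (175 to 307) against 104 CPM. Sostdc1, which encodes an inhibitor of BMP and WNT signals, went the other way, at 144 (98.5 to 203) against 677 CPM (654 to 700). The cluster markers differed less: Cxcl14 stood at 3227 against 3423 CPM and Krt14 at 2845 against 3138 CPM. Lmo1 was lower, at 801 (688 to 928) against 1007 CPM (980 to 1035), and Dcn higher, at 936 (813 to 1072) against 731 CPM (707 to 755).

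Genes of oral and dental epithelium were mostly lower. Of 17 measured members of that list, 13 were called lower in cluster 7 and 2 higher, with a median log2 ratio of -2.85. Sox2, which marks progenitors of tongue, taste and tooth epithelium, held 7 UMIs in cluster 7 and 258 in cluster 9, 43.9-fold lower (21.01 to 110). Foxe1, Foxa2 and Foxa1, forkhead genes of foregut and oral epithelium, held 1, 2 and 1 UMIs in cluster 7 against 24.4, 40.9 and 14.9 CPM in cluster 9. Pitx1 and Isl1, both genes of oral epithelium, were 9.71-fold and 8.68-fold lower, and Tbx1, which acts in tooth epithelium, 11.5-fold. The 2 higher members were Irx2 and Bcl11b (2.06-fold).

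Simple epithelial keratins were lower in 3 of 4 measured members, with a median log2 ratio of -2.73. Krt8 stood at 2.28 and 85.7 CPM (37.6-fold lower, 21.3 to 73.5) and its partner Krt18 at 24.3 and 240 CPM (9.86-fold). The stratified keratins as a list did not differ in this way, with 2 of 7 lower, 0 higher and a median log2 ratio of 0.17. The 2 were Krt17 (78.0 against 497 CPM) and Krt75 (0.380 against 6.79 CPM). Junction genes were lower in 8 of 25 and higher in 1, led by the desmosomal cadherin genes Dsc2 (11.3-fold lower) and Dsc3 (8.17-fold lower), and Cldn1 was the higher one (3.00-fold).

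Dapl1 (12.6-fold), Amot (8.80-fold), Ndufa4l2 (8.56-fold) and Wfdc2 (7.63-fold) completed the lowest ratios together with Cyp26a1, which encodes a retinoic acid-degrading enzyme (13.5-fold). Etv4, Etv5 and Dusp6, which FGF signalling is known to induce, were 7.57-fold, 4.14-fold and 2.51-fold lower, in a list where 4 of 15 members were lower and 1, the receptor gene Fgfr2, was higher (2.02-fold). Dusp6 was chosen after its values were seen. In cells called G1 only, the log2 ratios of Irx4 (7.09 to 5.21), Hic1 (4.09 to 5.38), Rprml (4.69 to 5.77), Tfap2b (5.35 to 6.04), Cyp26a1 (-3.76 to -2.64), Tbx1 (-3.52 to -4.42) and Amot (-3.14 to -3.81) moved by over 1.5-fold and kept their direction. The log2 ratio of Cxcl14 moved from 5.61 to 6.25 in cells with no Xist UMI.

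The leucine-rich proteoglycan genes are the matrix gene family of Dcn. Against cluster 9, 3 of 5 measured members were called higher and 0 lower, beside 3.11% and 5.04% of all genes. The given marker Dcn is 1 of the 3, so the count is partly set by it. The list's median log2 ratio was 1.06. Fmod, which encodes fibromodulin, stood at 22.6 and 7.46 CPM (3.03-fold), and Bgn, which encodes biglycan, at 42.9 and 20.6 CPM (2.08-fold). Lum stood at 20.5 and 11.3 CPM and Ogn at 5.51 and 3.84 CPM, and neither was called. In cells called G1 only, the median of the list was 0.62. Basement membrane and hemidesmosome genes differed little, with 0 of 26 higher and 2 lower, Egfl6 (4.95-fold) and Lamb3 (2.89-fold). The shares over all genes were 3.11% and 5.04%, so these counts are near the background.

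**Figure D4:**
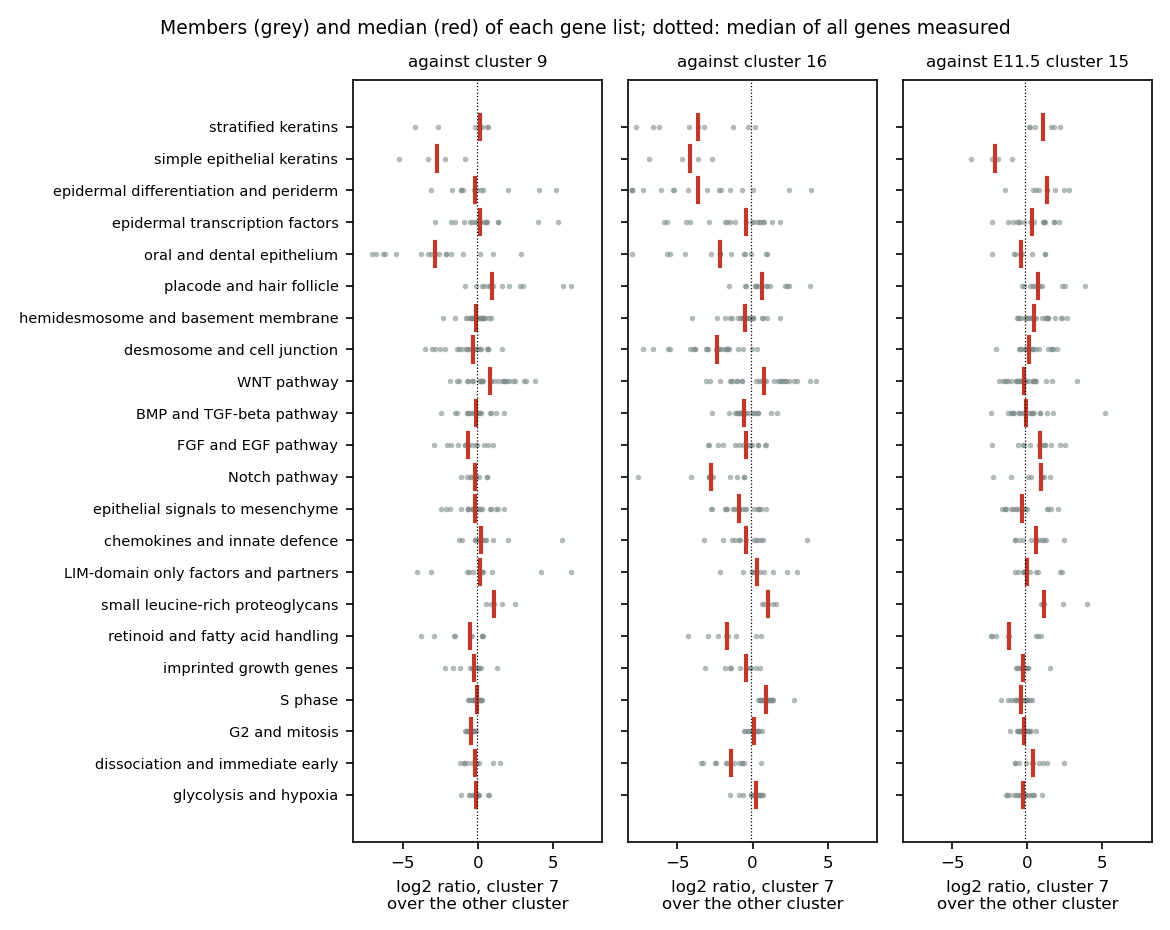
Grey points are the measured members of each gene list by their log2 ratio of cluster 7 over the cluster named above the panel (horizontal axis, values beyond 8 drawn at 8), red lines the list medians and dotted lines the median of all genes measured. Oral and dental genes lie left of the dotted line against cluster 9 (median -2.85), stratified keratins and junction genes against cluster 16 (-3.64 and -2.33), and placode genes lie to its right against cluster 9 (0.95).

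Compared with cluster 16, cluster 7 stood lower in keratins of upper layers, differentiation genes, cell junctions and Notch genes, and higher in Cxcl14, Lmo1 and a part of the WNT genes. The cells of cluster 16 were shallow and rich in mitochondrial RNA, with a median of 3061 UMIs and a mitochondrial share of 13.8%, and genes of dissociation stress and the immediate early response were higher in them (7 of 12 measured members lower in cluster 7, 0 higher); the part of these in the differences was not tested. Of 10239 genes measured, 359 were called higher in cluster 7 (3.51%) and 1563 lower (15.3%), so that 18.7% of the called genes were higher, and the median log2 ratio of measured genes detected in both clusters was -0.11. With the lowest UMI count and highest mitochondrial share of the E11.5 cells as limits that share was 33.8%. These limits kept 48 of the 159 cells of cluster 16. With each cell weighted equally the share was 34.5%. Those calls used the 2-fold size alone, with no interval, so the 34.5% does not show the weighting alone.

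Krtdap, a gene of differentiating keratinocytes, stood at 8.16 CPM in cluster 7 and 1263 in cluster 16, 155-fold lower (114 to 215). Sprr1a, which encodes a cornified envelope precursor, held 1 UMI in cluster 7 and 109 in cluster 16. Krt6a held 0 and 115 UMIs, at least 219-fold lower against a floor of 3 counts. Krt1 and Krt10, keratins of suprabasal cells, stood at 37.2 and 77.7 CPM in cluster 7 and at 465 and 736 CPM in cluster 16. Both were chosen after their values were seen. Stratified keratins were lower in 7 of 9 measured members and higher in 0 (median log2 ratio -3.64), while Krt5 and Krt14 stood at 0.797 and 1.12 times their level in cluster 16 and were not called.

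Differentiation and periderm genes were lower in 12 of 16 measured members, and the 2 higher ones were the connexin genes Gjb6 (14.6-fold) and Gjb2 (5.36-fold). Grhl1 and Zfp750, regulators of barrier formation, were 51.5-fold and 59.7-fold lower. Junction genes were lower in 22 of 26, with Cldn3, a tight junction gene, at 1.14 and 175 CPM. Notch genes were lower in 9 of 11, with the target gene Hes5 at 0.190 and 38.03 CPM and the receptor gene Notch3 at 3.04 and 51.1 CPM. The remaining lowest ratios belonged to Lypd2, Fam25c, Ly6d, Cldn23, Upk1b, Foxe1, Dmkn and Tmprss11b, all with 1 to 3 UMIs in cluster 7, and to Gabrp, with 0 UMIs (at least 155-fold lower).

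On the higher side, Rprml was 28.7-fold higher (9.77 to 140), Phlda2 12.6-fold, Wnt3 6.73-fold, Irx4 6.31-fold, Irx5 5.48-fold and Lef1 5.33-fold. Col12a1, a collagen gene, was 5.80-fold higher and Serpinb10 5.71-fold. WNT genes were higher in 11 of 28 measured members and lower in 8, with Sp5, a known WNT target, at 20.1 and 1.09 CPM. DNA replication and S phase genes were higher in 9 of 20 and lower in 0, led by Cdc6 (14.4 against 2.17 CPM).

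Cxcl14 was 12.3-fold higher than in cluster 16 (10.9 to 14.0), Lmo1 7.66-fold (6.39 to 9.26), Dcn 3.00-fold (2.62 to 3.44) and Krt14 1.12-fold (1.07 to 1.16). On the log2 scale the ratios of Cxcl14, Lmo1 and Dcn were 3.62, 2.94 and 1.58. With each cell weighted equally they were 4.29, 3.90 and 0.60. Within the E11.5 limits they were 3.19, 2.50 and 3.42. The direction held in each case, and the Dcn ratio moved most.

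Cluster 15 of the E11.5 library, which the authors named ectoderm, was set beside cluster 7 because both were high in Cxcl14 and Lmo1. It held 130 of the 405 cells of E11.5 clusters 9 and 15 (32.1%). Cxcl14 stood at 3415 CPM in cluster 7 and 2886 in the E11.5 cluster, and Lmo1 at 998 and 218 CPM. Dcn stood at 739 against 47.4 CPM, 15.6-fold higher (11.6 to 21.5), and Krt14 at 3126 against 1033 CPM, 3.03-fold (2.84 to 3.23). The choice of cluster 15 set its high Cxcl14 and Lmo1, so nothing is read from these levels. After thinning, Dcn was in 9.23% of the E11.5 cells and Cxcl14 in 96.9%.

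In this comparison 381 of 10030 measured genes were called higher in cluster 7 (3.8%) and 716 lower (7.14%), and the median log2 ratio was -0.15. With a size factor that removes the median log2 ratio of measured genes detected in both clusters (-0.16), 554 were higher and 512 lower. With each cell weighted equally, and genes called on the 2-fold size alone with no interval, 810 were higher and 886 lower. Ratios are best read relative to that median. The libraries also differed in Xist, at 342 CPM in cluster 7 and 1.08 in the E11.5 cluster, and in erythroid markers, at 1558 and 10607 CPM; their part in the differences was not tested.

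Stratified keratin genes were higher in cluster 7 and simple ones lower. Krt5 (810 against 182 CPM, 4.45-fold), Krt14 and Krt17 were the 3 of 6 stratified keratins called higher, while 0 were lower and the list's median log2 ratio was 1.06. All 4 simple keratins were lower, with Krt8 at 2.28 and 30.2 CPM and Krt7 at 23.5 and 120 CPM. Differentiation genes were higher in 5 of 9 and lower in 1, Gjb2, which stood at 245 CPM in cluster 7 and 676 CPM at E11.5. The higher members were Lgals7 (446 against 126 CPM), Calml3, Lypd3, Krtdap and Lor. Krtdap and Lor stood at only 8.16 and 7.97 CPM in cluster 7 and held 0 UMIs at E11.5, so their ratios are bounds. Lypd3 held 39 and 1 UMIs. After thinning, Krtdap was in 1.04% of cluster 7 cells and in 0.971% of E13.5 erythroid cells, which should lack it. Epidermal transcription factors were higher in 7 of 16 and lower in 2. Klf5 (37.0 against 8.62 CPM) and Ovol2 (18.8 against 5.39 CPM) were higher, and Msx2, a homeobox gene and BMP target, was lower (30.6 against 158 CPM). Tfap2b stood at 487 and 430 CPM and was not called.

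Adhesion genes of the basal surface were higher in 5 of 25 measured members and lower in 0, beside 3.8% and 7.14% of all genes. They included Lama3, a subunit gene of the laminin that anchors epidermis (20.7 against 4.31 CPM). Col17a1 and Itgb4, genes of the hemidesmosome, were 2.61-fold and 2.29-fold higher. Itgb4 and Col17a1 were chosen after their values were seen. WNT genes moved in both directions, with 3 of 29 higher and 5 lower, beside the same 3.8% and 7.14%. Wnt9b was 2.74-fold lower than at E11.5 and Wnt7b 2.13-fold, while Wif1, a secreted WNT inhibitor gene, stood at 10.6 and 1.08 CPM. Wnt7b was chosen after its values were seen.

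Fst, which encodes follistatin, an antagonist of activin and BMP, held 409 UMIs in cluster 7 and 2 in the E11.5 cluster, 36.0-fold higher (9.91 to 298). Its UMIs lay in 146 of the 385 cells of cluster 7. E13.5 cluster 9 held 379 Fst UMIs, in 97 cells, so Fst was not particular to cluster 7. Serpinb10 stood at 74.4 CPM in cluster 7 and held 0 UMIs in the E11.5 cluster, at least 23.0-fold higher. Further genes among the highest were Trim29 (9.31-fold), Anxa8 (7.03-fold), Ifitm3 (5.39-fold), Hic1 (4.87-fold), Prss23 (4.60-fold) and Cltb (3.72-fold). The lowest ratios held Bambi, a decoy receptor gene of BMP (5.41-fold lower), Sema3a, an axon guidance gene (5.38-fold lower), and Slc2a3, a glucose transporter gene (6.41-fold lower). The others were Lrrc8a, Timmdc1, Marf1, Slc24a5, Paip1, Dynlt1c, Arl14ep and Tpm3, from 14.9-fold to 5.18-fold lower.

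The contrast between cluster 7 and cluster 9 was also read in the E11.5 library, between its clusters 15 and 9, a comparison chosen after the data were seen. The contrasts share no cells. Among 8618 genes measured in both, 160 were called higher at E13.5 (1.86%) and 217 at E11.5 (2.52%), and 77 were called in both, 48.1% of the E13.5 genes and 35.5% of the E11.5 genes. Of the E13.5 genes 3 were called in the opposite direction at E11.5. On the lower side 292 genes at E13.5 (3.39%) and 285 at E11.5 (3.31%) shared 111, which is 38.01% of the E13.5 genes and 38.9% of the E11.5 genes, with 7 opposite. Because cluster 15 was picked by Cxcl14 and Lmo1, these genes of the 77 were set by the choice.

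Gjb6 was 36.5-fold higher in cluster 7 than in cluster 9 at E13.5, and 39.6-fold higher in the same contrast at E11.5. Tfap2b was 40.7-fold and 15.4-fold higher, and Irx4 136-fold and 11.5-fold. Dcn was 5.60-fold higher at E13.5 and 10.7-fold at E11.5, where it stood at 47.4 against 4.41 CPM. Cyp26a1 stood at 0.0741 times the level of cluster 9 at E13.5 and at 0.556 times at E11.5. Of the differences shown here, those of Gjb6, Tfap2b, Irx4 and Dcn were thus called at both stages, that of Dcn on 44 and 9 UMIs at E11.5. Whether any ratio differs between the stages was not tested.

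**Figure D5:**
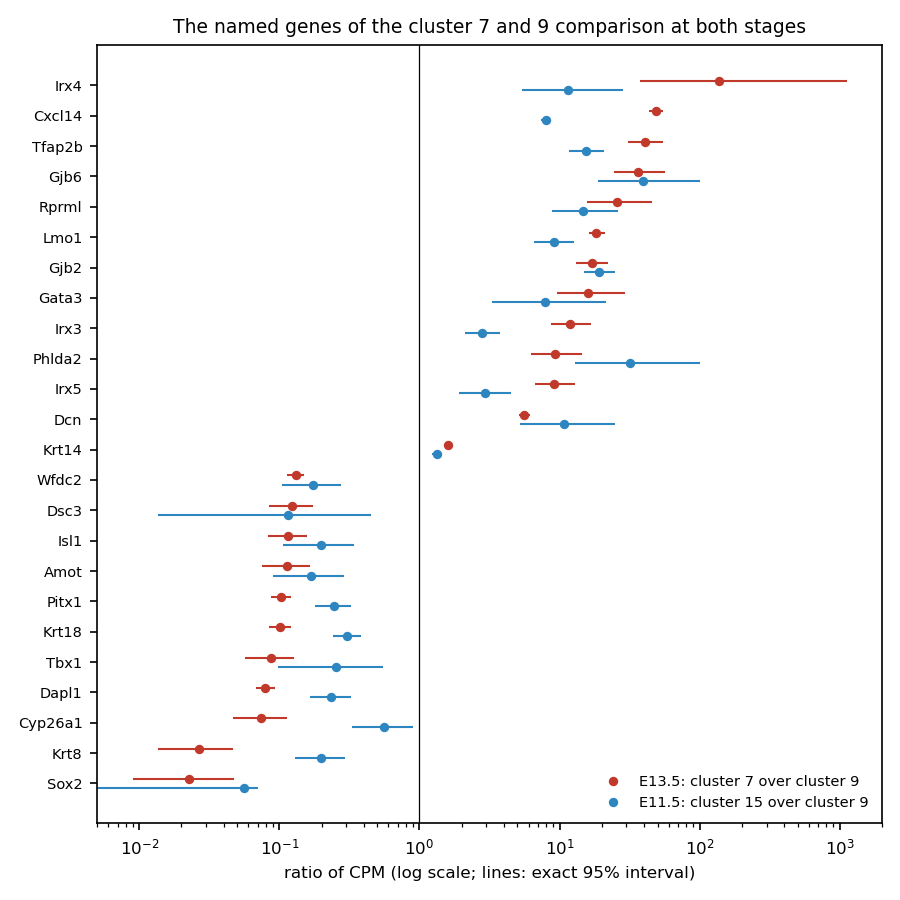
Points are the ratio of CPM (log axis) of cluster 7 over cluster 9 at E13.5 (red) and of cluster 15 over cluster 9 at E11.5 (blue) for the 4 given markers and those of the 12 highest and 12 lowest genes of the E13.5 comparison that were measured in both contrasts (Hic1 and Ndufa4l2 were not), with exact 95% intervals, cut off at 0.005. Sox2 had 0 UMIs in E11.5 cluster 15 and is drawn at its bound. All 24 genes drawn lie on the same side of 1 at both stages, with Gjb6 at 36.5 and 39.6 and Cyp26a1 at 0.0741 and 0.556. For Cxcl14 and Lmo1 among them this was set by the choice of E11.5 cluster 15.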

How the data were processed

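Per library, the deposited files are a matrix of raw UMI counts (genes by cells) and the authors' metadata: the mitochondrial fraction, here shown in percent, cell cycle scores, phase calls, clusters and lineage names. The deposited score values were not used. The submitters' processing notes name Cell Ranger 2.0.0, Seurat 2.3.4 and the build mm10. Not given in the sources used here: aligner settings, cell filters and doublet removal. In total, the E13.5 library held 67838169 UMIs in 6318 cells (cluster 7: 5267104) and the E11.5 library 49913485 in 7099. Lowest UMI counts of a cell were 500 and 2253, and highest mitochondrial shares 20.0% and 7.90%.

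Counts were summed per cluster and scaled to CPM. Ratios have exact conditional binomial intervals, levels exact Poisson intervals and shares Clopper-Pearson intervals, all at 95%. A gene counted as measured from 20 UMIs over both clusters upward, and a list was described by its called members and median over 22 lists. Against a count of 0, ratios were bounded by a floor of 3 counts. The text names the 4 given markers, the 20 highest ratios over all other E13.5 cells, the 12 highest and 12 lowest ratios of each comparison and the 3 highest and 3 lowest members of lists. Ranked genes needed at least 50 UMIs, 50 CPM on the higher side, an interval beyond 2-fold, and a level no less than 0.2 of that in the gene's top cluster; haemoglobin, mitochondrial, ribosomal, predicted and sex-linked genes were left out of the ranking. Members and lists were chosen with earlier results of these data known. The comparison code was tested on simulated data. Doublets were kept; Scrublet in scanpy 1.11.5 marked 7 (0.0986%) and 94 (1.49%) cells, and an alternative left out the 5% with the highest scores. Coordinates are GENCODE M21 (18 of the 20 leading genes matched by symbol), and promoter sequences RefSeq's. Software: Python 3.11.15, with scipy 1.17.1, numpy 2.4.6, matplotlib 3.10.9 and pandas 2.3.3.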

Additional observations from a re-analysis of the deposited data

How the results depend on the processing

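No paired analysis was possible because each stage was 1 library and no value comes from a test. Over the alternatives, 615 of 660 medians of lists and 577 of 624 single-gene ratios stayed within their intervals, 40 and 47 moved, and 5 and 0 turned in direction; the cause was not tested. A median counted as turned only where its interval as reported lay off 0 (a gene, where it was called). These were G2 and mitosis genes against cluster 9 in G1 cells only (0.10), epithelial signals against cluster 16 within the E11.5 limits (0.47), chemokine and defence genes against cluster 16 with a minimum of 100 UMIs (0.073) and within the E11.5 limits (0.44), and epidermal transcription factors against E11.5 cluster 15 with no filter on low counts (-0.090). Some medians with a band around 0 also moved past it to the other sign. Against cluster 9 these were stratified keratins with no filter (-0.22). Against cluster 16 they were hemidesmosome genes within the E11.5 limits (0.68) and G2 and mitosis genes in G1 cells (-0.61). Against E11.5 cluster 15 they were oral and dental genes in G1 cells (0.15) and dissociation genes with a minimum of 100 UMIs (-0.54).

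With a minimum of 100 UMIs, which leaves fewer genes, 131 genes were higher and 186 lower than in cluster 9, 207 and 730 than in cluster 16, and 231 and 274 than in E11.5 cluster 15. A 1.5-fold size rule gave 567 and 984 against cluster 9, 698 higher against cluster 16, and 648 and 1441 against E11.5 cluster 15. Equal weight per cell, with calls on the 2-fold size alone and no interval, gave 1265 and 2401 against cluster 16. Under the same looser rule 810 were higher against E11.5 cluster 15. These counts thus do not show the weighting alone. G1 cells only gave 222 higher against cluster 9 and 218 higher against E11.5 cluster 15, and the E11.5 limits gave 846 lower against cluster 16 and a share of 53.0% of the epithelial cells for cluster 7. Thinning to 1000 UMIs gave 94.5%, 91.4%, 61.1% and 42.3% of cells for Krt14, Cxcl14, Lmo1 and Dcn, and no thinning 100%, 99.0%, 97.1% and 89.1%.

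Further medians that moved against cluster 9 were simple keratins with no filter on low counts (-2.16), placode (0.51), WNT (0.34) and BMP and TGF-beta genes (-0.61) in G1 cells, leucine-rich proteoglycans in G1 cells (0.62) and in cells with no Xist UMI (1.83), retinoid and fatty acid genes with no filter (-0.32) and without the highest doublet scores (-1.62), and G2 and mitosis genes in cells with no Xist UMI (-0.68). Among the medians that moved against cluster 16, stratified keratins moved to -3.24 with a minimum of 100 UMIs, -2.89 with equal weight, -4.04 within the E11.5 limits, -4.05 in G1 cells and -3.99 in cells with no Xist UMI. Simple keratins moved to -3.63 with no filter and -3.60 with equal weight, differentiation genes to -2.24 (100 UMIs) and -2.85 (equal weight), oral and dental genes to -0.56 (100 UMIs) and -1.39 (G1), junction genes to -2.75 (equal weight), proteoglycans to 2.15 (E11.5 limits), and retinoid and fatty acid genes to -0.96 (equal weight) and -1.17 (E11.5 limits). Against E11.5 cluster 15, stratified keratins moved to 0.52 with no filter. The cell sets with no Xist UMI and without the 10 cells richest in Dkk4 were chosen after seeing the data; the latter moved 0 of 66 list medians. Depth limits the rare genes: a gene with 20 UMIs over both clusters has a wide interval, and cluster 16 and E11.5 cluster 15 hold 920378 and 927809 UMIs.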

Other observations

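Of 9 measured genes of retinoid and fatty acid handling, 4 were lower than in cluster 9 and 0 higher, beside 5.04% of all genes lower. Among the 4 were Cyp26a1, Crabp2 (18.0 against 138 CPM) and Rarb (3.61 against 10.6 CPM). Crabp2 encodes a binding protein of retinoic acid, and Rarb a receptor that retinoic acid is known to induce. Against E11.5 cluster 15, 4 of 8 were lower and 0 higher, beside 7.14% of all genes lower, with Crabp1 at 42.7 and 178 CPM. Fabp5, a fatty acid-binding protein gene, stood at 973 CPM in cluster 7, 1273 in cluster 9 and 2998 in cluster 16, and was called lower in the last comparison only (3.08-fold). Fabp5 was chosen after its values were seen.

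In the list of imprinted growth genes, 3 of 13 measured members were lower than in cluster 9 and 0 higher, beside 5.04% of all genes lower. The list does not hold the imprinted gene Phlda2, which was 9.33-fold higher in cluster 7. Meg3, a long noncoding RNA gene, stood at 109 and 506 CPM (4.63-fold lower), Peg10 at 2.47 and 7.69 CPM and Plagl1 at 25.1 and 58.1 CPM. Meg3 was found in 177 of the 385 cells of cluster 7 and in 269 of the 294 cells of cluster 9, and 10 cells held 37.2% of its UMIs in cluster 7. Among genes of cell division, 0 of 20 S phase and 0 of 20 G2 and mitosis genes were called against cluster 9, with median log2 ratios of -0.05 and -0.42.

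Glycolysis and hypoxia genes were lower than at E11.5 in 2 of 16 measured members and higher in 0, beside 7.14% of all genes lower, so the count is near the background. Pgk1 stood at 39.9 and 101 CPM and Bnip3 at 38.5 and 88.4 CPM. Midkine, encoded by Mdk and secreted by embryonic epithelium, stood at 871 CPM in cluster 7 and 2400.3 CPM in E11.5 cluster 15 (2.75-fold lower). Among the ligands that epithelium sends to mesenchyme, Bmp7 was higher than in cluster 9 (89.4 against 38.2 CPM, 2.34-fold) and than in E11.5 cluster 15 (2.51-fold). Tgfb2 was lower than in cluster 9 (6.83 against 37.8 CPM, 5.53-fold) and Shh as well (2.28 against 9.73 CPM, 4.27-fold). The Shh ratio rests on 12 UMIs in 9 cells of cluster 7 and 43 UMIs in 19 cells of cluster 9. Of the 12, 5 lay in 3 of the 16 cells with at least 3 Dkk4 UMIs.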
